A study of Mus musculus with 57 samples.

Results

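The genes described here are the mouse Fc gamma receptors Fcgr1, Fcgr2b, Fcgr3 and Fcgr4 and the gene of their shared signalling chain, Fcer1g. They were taken by symbol, 5 genes of the 50565 in one deposited count table and of the 53278 in the other, and all 5 passed the filter on low counts in both. RNA was sequenced from CD11b-positive brain cells, annotated as microglia, of adult wild-type (WT) mice and of littermates deficient in P2RY12 (KO), a nucleotide receptor that is abundant on resting microglia. The design asks how loss of P2RY12 alters microglial activation in males, in females and after lipopolysaccharide (LPS), a bacterial cell-wall component injected into the peritoneum at 1 mg/kg.

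The first table, called the sex experiment here, holds 9 males (4 WT and 5 KO) and 9 females (4 WT and 5 KO), with no treatment named for the single animal. The second, called the LPS experiment, holds 8 WT ns, 9 WT LPS, 8 KO ns and 8 KO LPS libraries, without a stated sex. The labels use ns for the animals not labelled LPS and do not define it, and they give neither the knockout allele nor the time between LPS and cell isolation. Nothing in the labels says that each library of the LPS experiment came from its own animal, so p-values there measure the spread between libraries.

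P2ry12, the targeted gene, was at 3007 to 5928 CPM (read counts scaled to library size, the unit of all levels below) in WT and 309.3 to 526.4 CPM in KO animals of the sex experiment. In the LPS experiment 4 WT libraries went against their labels, those numbered 2 in the WT ns and WT LPS groups of each library set. Of these, WT ns 1 and WT ns 5 by label had P2ry12 at 481 and 927 CPM, below the 3516 to 5406 CPM of the other WT ns libraries. They had Saa3, an acute-phase gene induced by LPS, at 1781 and 2491 CPM, against 1.52 to 64.3 CPM in the others. For WT LPS 1 and WT LPS 6 by label, Saa3 was at 1.59 and 3.21 CPM, against 1418 to 9720 CPM in the other WT LPS libraries. The KO groups hold libraries numbered 2 as well, and these went with their labels. Saa3 was at most 3.24 CPM in KO ns and at least 1024 CPM in KO LPS. The 4 WT libraries are shown apart below, and the WT results for LPS are also given with them in their labelled groups. Below, libraries numbered 2 means these 4. Where every library numbered 2 is left out of all groups, the KO ones are left out too.

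Further, 5 libraries, 2 of them among these 4, stood apart by the share of their counts in 89 ribosomal protein genes. The share was 3.15% to 9.01% in WT ns 5, KO LPS 5, WT LPS 6, KO ns 6 and WT LPS 7, all in library set 2, and 1.14% to 2.24% in the remaining 27 samples. Counts of WT LPS 8 and WT LPS 9 were nearly alike, with a chi-square divided by its degrees of freedom of 1.86, where all remaining same-group pairs of the experiment had 8.32 or more. The 2 were summed and counted as 1 sample. All 8 markers of microglia were detected in every group, with summed levels of 16057 to 45325 CPM in the 4 groups of the LPS experiment.

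Fc gamma receptors bind the constant part of immunoglobulin G and let phagocytes such as microglia recognise antibody-coated material. Fcgr1, Fcgr3 and Fcgr4 encode the activating receptors FcγRI, FcγRIII and FcγRIV, whose surface expression and signalling depend on the Fc receptor gamma chain encoded by Fcer1g. That chain carries an activation motif (ITAM) that is phosphorylated by Src-family kinases and then recruits Syk. Fcgr2b encodes the inhibitory receptor FcγRIIb, which carries an inhibitory motif (ITIM) and recruits phosphatases such as SHIP-1, the product of Inpp5d. Microglia express these receptors, and interferon-γ is a known inducer of FcγRI.

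Per the coordinates deposited with the counts (build GRCm39), 4 of the genes lie on chromosome 1, Fcgr2b at chr1:170786186-170804141, Fcgr4 at chr1:170846495-170857330, Fcgr3 at chr1:170878738-170893477 and Fcer1g at chr1:171057141-171061918. Fcgr1 lies at chr3:96190225-96201285. Fcgr4 is on the plus strand and the others are on the minus strand. Fcgr3 and Fcgr4 overlap only small RNA genes in the deposited table, which had at most 18 and 21 counts in a library.

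The 250 bases before the start of Fcgr4 and Fcgr1 are shown because these genes were called higher after LPS in both genotypes, as described below. They are from RefSeq on build GRCm38.p6, 5′ to 3′ on the gene's strand, at chr1:171018676-171018925 for Fcgr4 and chr3:96293970-96294219 for Fcgr1. Capitals mark 3 motifs: the interferon-stimulated response element (GAAA, any 2 bases, GAAA), the gamma-activated site TTCNNNGAA, and GAGGAA, the core bound by the myeloid factor PU.1, each searched on both strands.
Fcgr4: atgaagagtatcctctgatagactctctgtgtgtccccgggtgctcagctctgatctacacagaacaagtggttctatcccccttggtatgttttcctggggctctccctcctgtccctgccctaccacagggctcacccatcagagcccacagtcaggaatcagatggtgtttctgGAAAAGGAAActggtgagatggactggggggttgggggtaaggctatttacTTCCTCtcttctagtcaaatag
Fcgr1: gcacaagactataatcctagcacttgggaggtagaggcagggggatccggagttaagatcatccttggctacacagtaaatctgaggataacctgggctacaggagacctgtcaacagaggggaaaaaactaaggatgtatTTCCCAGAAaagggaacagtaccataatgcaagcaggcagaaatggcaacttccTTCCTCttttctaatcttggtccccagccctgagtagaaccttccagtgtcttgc

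The Fcgr4 window held the response element 73 bases and a PU.1 core (as TTCCTC) 22 bases before the start. The Fcgr1 window held the gamma-activated site 109 bases and a PU.1 core 55 bases before the start. Of 32851 mouse promoters with windows of the same length, 2.98% held the response element, 7.02% the gamma-activated site and 23.3% the PU.1 core. The Fcgr3 window held the PU.1 core as well, with a κB motif (GGG, any 2 bases, TTTCC, in 1.41% of promoters) and a C/EBP motif (TTGCNNAA, in 9.56%). None of the 5 motifs searched was found in the Fcgr2b and Fcer1g windows. The motifs were chosen with the sequences in view, and a match describes letters and not binding.

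Fcgr2b and Fcgr3 share coding sequence, which bears on how their reads could be told apart. Their longest identical coding run has 129 bases (GENCODE M21 transcripts, GRCm38), at bases 278 to 406 of the Fcgr2b coding sequence and 263 to 391 of that of Fcgr3, and it is shown here in lower case throughout.
Shared run: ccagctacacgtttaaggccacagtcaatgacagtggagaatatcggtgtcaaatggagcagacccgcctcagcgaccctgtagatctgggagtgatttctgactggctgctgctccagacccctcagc

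Of the 50-base stretches of the Fcgr2b coding sequence, 17.1% occurred in Fcgr3, and 22.1% of those of Fcgr3 occurred in Fcgr2b. No other pair of the 5 genes shared a 50-base stretch. Reads from the shared part could be lost or assigned to either gene, so the levels of these 2 are less certain than those of the other 3. CPM values are not per length, so they compare 1 gene across samples and never 1 gene with another.

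**Figure D1:**
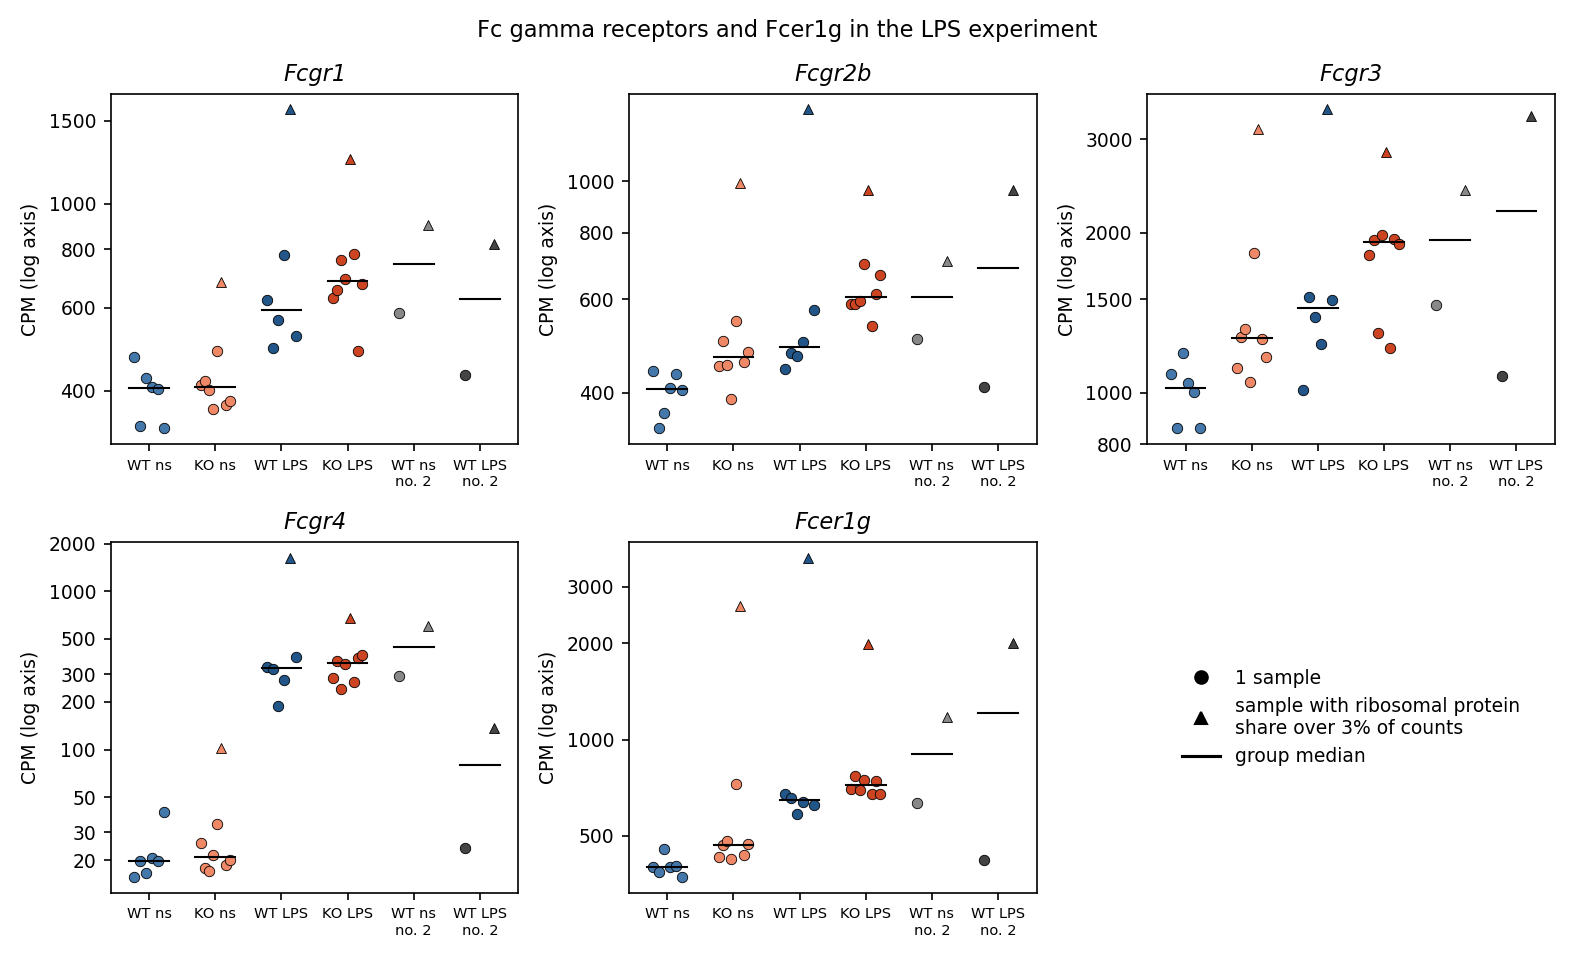
CPM (log axis) of each gene in the LPS experiment, 1 symbol per sample, bars at group medians, triangles for samples with a ribosomal protein share over 3%, and the WT libraries numbered 2 apart on the right of each panel. Fcgr4 is at 15.7 to 101.7 CPM in the KO ns and WT ns groups and at 188.7 to 1625 CPM in the LPS groups, with no overlap.

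Fcgr4 and Fcgr1 were higher after LPS in both genotypes. Fcgr4, the gene of the activating receptor for IgG2a and IgG2b complexes, rose 12.4-fold in KO and 21.5-fold in WT, and Fcgr1, the gene of the high-affinity receptor, rose 1.68-fold and 1.85-fold. Fcer1g and the inhibitory Fcgr2b passed the test in WT only, at 2.46-fold and 1.54-fold, and those WT calls were lost when single libraries were left out. Fcgr3, the gene of the low-affinity activating receptor, passed in neither genotype in the edgeR fit with the library set as covariate. These counts, 2 of 5 genes in KO and 4 of 5 in WT, stand beside 28.3% of all 15857 genes called in KO (13.1% higher) and 30.3% in WT (14.8% higher), by edgeR's quasi-likelihood test at a Benjamini-Hochberg adjusted p under 0.05. The median log2 fold change over the 5 genes was 0.33 in KO and 0.89 in WT, beside -0.020 and -0.011 over all genes. DESeq2 called 2 of the 5 in KO and all 5 in WT, beside 31.8% and 34.9% of all genes. None of the 5 fell, where 15.2% of all genes fell in KO and 15.5% in WT.

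In the ns groups Fcgr4 was low. It ranged from 17.1 to 101.7 CPM with a median of 20.9 in KO ns (n = 8), and from 15.7 to 40.1 CPM with a median of 19.7 in WT ns (n = 6). After LPS it ranged from 242.6 to 677.2 CPM with a median of 354.6 in KO (n = 8), and from 188.7 to 1625 CPM with a median of 328.0 in WT (n = 6). No LPS sample was as low as any ns sample of either genotype, and the high ends of KO ns, KO LPS and WT LPS were the libraries KO ns 6, KO LPS 5 and WT LPS 7. The log2 fold change was 3.63 ± 0.38 (SE) in KO (adjusted p = 2.12e-08) and 4.43 ± 0.46 in WT (adjusted p = 2.23e-08, edgeR). As folds, the 95% confidence intervals ran from 7.20 to 21.3 in KO and from 11.2 to 41.2 in WT.

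The 4 libraries numbered 2 reversed this pattern against their labels. Fcgr4 was at 292.7 and 600.4 CPM in WT ns 1 and WT ns 5, and at 23.99 and 136.8 CPM in WT LPS 1 and WT LPS 6. With them in their labelled groups the WT log2 fold change of Fcgr4 was 1.60 ± 0.69 (adjusted p = 0.176, edgeR), and none of the 5 genes was called in WT, beside 0.0% of the 15857 genes. In KO the same fit called Fcgr4 and Fcgr1, beside 22.3% of all genes. In that fit 3605 genes had an unadjusted p under 0.05, Fcgr4, Fcgr1, Fcgr2b and Fcer1g among them, and DESeq2 was not run on it.

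Fcgr1 moved less and more evenly. In KO it ranged from 365.9 to 681.9 CPM (median 407.0) in ns and from 486.1 to 1246 CPM (median 683.3) after LPS, so that the groups overlapped. In WT it ranged from 332.8 to 472.2 CPM (median 405.4) in ns and from 492.98 to 1586 CPM (median 593.9) after LPS, without overlap. The KO overlap came from KO ns 6 alone, since the other KO ns samples were all below the lowest KO LPS sample. The log2 fold change was 0.75 ± 0.20 in KO (adjusted p = 0.00530) and 0.89 ± 0.24 in WT (adjusted p = 0.00476, edgeR). With every library numbered 2 left out of all groups, the KO call was lost (0.64, adjusted p = 0.0539, beside 29.3% of all genes called in KO and 36.3% in WT), and with the WT libraries in their labelled groups the WT value was 0.55 (adjusted p = 0.164).

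Fcer1g, which encodes the common gamma chain, was at 373 to 454 CPM (median 399.9) in WT ns and at 586 to 678 CPM in WT LPS apart from WT LPS 7, which had 3690 CPM. In KO it was at 422 to 481 CPM in 6 ns libraries, at 724 CPM in KO ns 5 and at 2612 CPM in KO ns 6. After LPS it was at 675 to 767 CPM in 7 KO libraries and at 1990 CPM in KO LPS 5. Thus the WT groups did not overlap, whereas in KO the highest sample of all was an ns library. The log2 fold change was 0.32 ± 0.37 in KO (adjusted p = 0.586) and 1.30 ± 0.44 in WT (adjusted p = 0.0249, edgeR). Without WT LPS 7 the WT value fell to 0.75 (adjusted p = 0.197), and without WT ns 6, WT ns 7 or WT ns 8 the adjusted p was 0.0609 to 0.0629. With the libraries numbered 2 in their labelled groups it was 0.95 (adjusted p = 0.160).

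Fcgr2b, the gene of the inhibitory receptor, was at 390 to 547 CPM in KO ns apart from KO ns 6 (994 CPM), and at 534 to 698 CPM in KO LPS apart from KO LPS 5 (961 CPM). In WT it was at 343 to 439 CPM in ns and at 443 to 573 CPM after LPS, apart from WT LPS 7 (1365 CPM). The WT groups did not overlap, although their nearest samples differed by little. The log2 fold change was 0.32 ± 0.19 in KO (adjusted p = 0.242) and 0.62 ± 0.22 in WT (adjusted p = 0.0356, edgeR). The WT call was lost without WT LPS 7 (0.36, adjusted p = 0.230) and without WT ns 3, 6, 7 or 8 (adjusted p = 0.0536 to 0.0764), and in the labelled groups (0.47, adjusted p = 0.177). Other processing also undid it in edgeR. The adjusted p was 0.0529 with no filter on low counts and 0.0519 with a filter at a mean of 5 CPM. It was 0.0847 with only the groups compared and 0.0508 without the library set as covariate.

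Fcgr3 was at 1050 to 1836 CPM in KO ns apart from KO ns 6 (3141 CPM), and at 1212 to 1983 CPM in KO LPS apart from KO LPS 5 (2837 CPM). In WT it was at 857 to 1188 CPM in ns and at 1013 to 1513 CPM after LPS, apart from WT LPS 7 (3415 CPM). Its groups overlapped in both genotypes. The log2 fold change was 0.33 ± 0.23 in KO (adjusted p = 0.324) and 0.68 ± 0.27 in WT (adjusted p = 0.0566, edgeR). DESeq2 gave 0.72 for WT with an adjusted p of 0.0424, and the labelled groups gave 0.49 (adjusted p = 0.249, edgeR). With each of the 32 samples left out in turn, the edgeR adjusted p for WT ran from 0.0305 to 0.252, and 9 of these fits called Fcgr3.

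**Figure D2:**
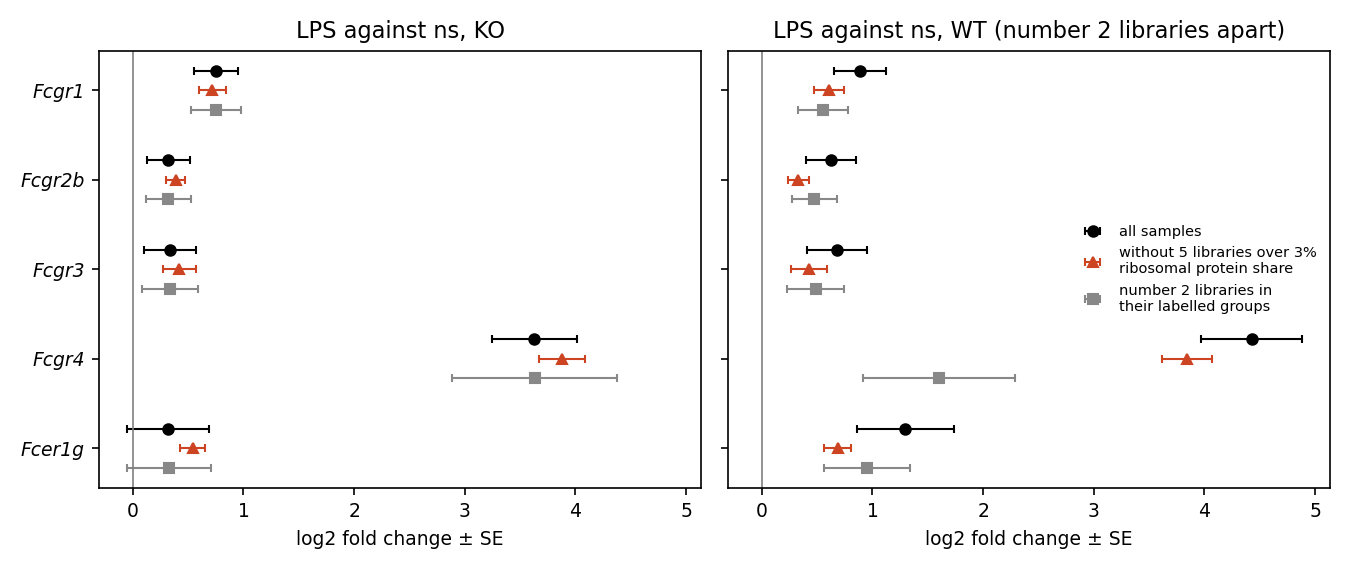
Log2 fold change, LPS against ns, of each gene in KO (left) and WT (right) with its standard error, for all samples with the libraries numbered 2 apart (circles), without the 5 libraries of high ribosomal protein share (triangles) and with the libraries numbered 2 in their labelled groups (squares). Fcgr4 stands at 3.63 in KO and 4.43 in WT, and the WT value is 1.60 with the libraries numbered 2 in their labelled groups.

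KO ns 6, KO LPS 5 and WT LPS 7, 3 of the 5 libraries of high ribosomal protein share, held the highest value of every one of the 5 genes in their groups. Without the 5 libraries all 5 genes passed the test in both genotypes, in fits in which 48.2% of all genes were called in KO and 46.0% in WT. The KO log2 fold changes were then 3.88 for Fcgr4, 0.72 for Fcgr1, 0.54 for Fcer1g, 0.42 for Fcgr3 and 0.39 for Fcgr2b, with adjusted p between 9.98e-13 and 0.0210 (edgeR). The WT values were 3.84, 0.61, 0.68, 0.43 and 0.33 in the same order, with adjusted p between 8.23e-12 and 0.0382. On these samples the values of the 2 genotypes lay close together for each gene, and Fcer1g went from 490 ± 106 (SD, n = 7) to 715 ± 37 CPM (n = 7) in KO and from 402 ± 28 (n = 6) to 636 ± 34 CPM (n = 5) in WT. This choice of libraries was made after seeing the data.

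The library sets gave different precision. In set 1 alone, where 44.9% of all genes were called in KO and 42.6% in WT, all 5 genes were called in KO, with Fcgr4 at 3.93, Fcgr1 at 0.80, Fcer1g at 0.72, Fcgr3 at 0.59 and Fcgr2b at 0.49 on the log2 scale. In WT, set 1 gave 4.04 for Fcgr4, 0.65 for Fcer1g and 0.46 for Fcgr1, all called, and 0.35 for Fcgr3 and 0.30 for Fcgr2b, not called. In set 2 alone, where 4.65% of all genes were called in KO and 3.62% in WT, Fcgr4 was the only one called, at 3.45 in KO (adjusted p = 0.00975) and 4.78 in WT (adjusted p = 0.00755, edgeR). The log2 fold change of each of the 5 genes was above 0 in both sets and both genotypes, passed or not.

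**Figure D3:**
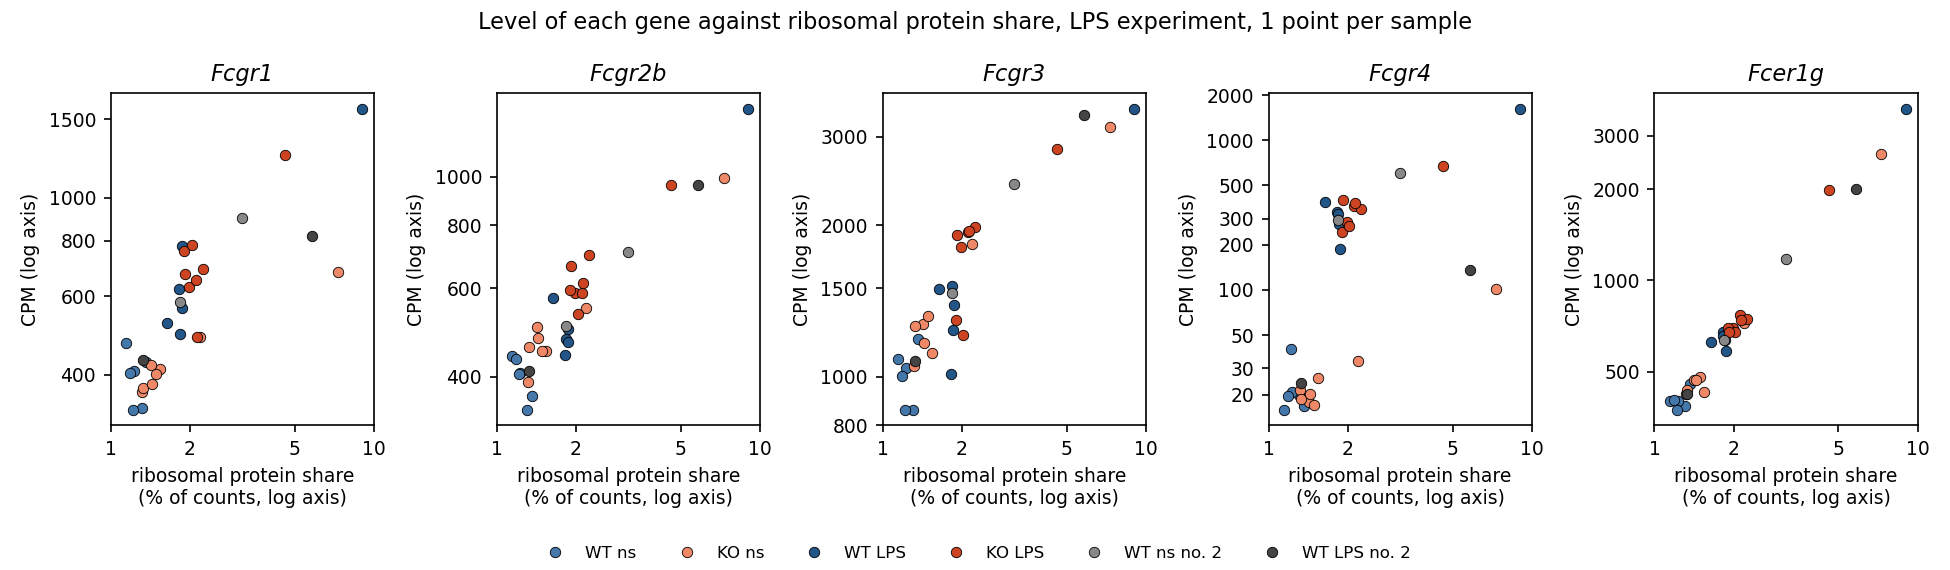
CPM of each gene (log axis) against the share of counts in 89 ribosomal protein genes (%, log axis) in the LPS experiment, 1 point per sample, coloured by group. Fcer1g is higher where the share is higher over the whole range of 1.14% to 9.01%, whereas Fcgr4 in KO ns 6, at a share of 7.28%, is 101.7 CPM and below every KO LPS and WT LPS sample outside the libraries numbered 2.

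The ribosomal protein share itself moved with LPS, from 1.14% to 1.37% in WT ns to 1.64% to 9.01% in WT LPS, and from 1.32% to 7.28% in KO ns to 1.91% to 4.60% in KO LPS. Its part in the changes of the 5 genes was not tested. Of the 8 microglia markers 5 fell after LPS in each genotype, beside 15.2% of all genes in KO and 15.5% in WT. The summed level of the 8 was 31059-45325 CPM (KO ns), 20447-25904 CPM (KO LPS), 20960-36680 CPM (WT ns) and 16057-24419 CPM (WT LPS). In bulk samples fewer cells of a type and less RNA per cell cannot be told apart.

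Markers of other cells that carry Fc receptors varied widely between samples. Their counts stand beside 13.1% of all genes higher and 15.2% lower after LPS in KO, and 14.8% and 15.5% in WT. The 6 monocyte markers summed to 52.7-1168 CPM in KO ns, 182-614 CPM in KO LPS, 90.7-1720 CPM in WT ns and 302-2423 CPM in WT LPS, with 1 marker higher and 1 lower after LPS in each genotype. The 10 neutrophil markers summed to 297-10172 CPM in KO ns, 1015-4456 CPM in KO LPS, 332-17641 CPM in WT ns and 1714-13509 CPM in WT LPS, with none called in KO and 2 lower in WT. With the neutrophil marker level as a covariate, added after seeing the data, Fcgr4 changed by 3.70 in KO and 4.48 in WT. The 7 markers of border macrophages summed to 243-715 CPM in KO ns, 155-492 CPM in KO LPS, 324-951 CPM in WT ns and 177-547 CPM in WT LPS, with 3 lower in KO and 2 lower in WT. Mast cell markers reached at most 24.2 CPM in these groups, with the mast cell protease gene Mcpt4 at 0 in KO ns, KO LPS and WT ns. The part of monocytes and border macrophages in the results was not tested.

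Loss of P2RY12 did not move any of the 5 genes past the threshold in the LPS experiment. The order of the medians was the same for all 5 genes, KO LPS first, then WT LPS, KO ns and WT ns. The KO and WT neighbours at each treatment overlapped for every gene. The median ribosomal protein share had this order too, at 2.07%, 1.84%, 1.46% and 1.22%, and its part was not tested. Levels of the 5 genes ran together over the samples (Pearson's r of 0.640 to 0.953), so these are not 5 separate observations. The fitted differences after LPS, given below, did not all follow this order. In ns samples the KO minus WT log2 difference was 0.54 ± 0.26 for Fcgr3 (unadjusted p = 0.0434, adjusted p = 0.550, edgeR), 0.72 ± 0.41 for Fcer1g, 0.39 ± 0.21 for Fcgr2b, 0.46 ± 0.38 for Fcgr4 and 0.13 ± 0.22 for Fcgr1. Fcgr3 was the only one of the 5 with an unadjusted p under 0.05, as had 1415 of the 15857 genes, and DESeq2 called none of them either. Of all genes, 0.0883% were called by edgeR and 0.29% by DESeq2. The 95% interval of the Fcgr4 difference in ns samples ran from -0.31 to 1.23 on the log2 scale, and that of Fcgr1 from -0.32 to 0.57. With the libraries numbered 2 in their labelled groups the Fcgr4 difference was -2.02 (adjusted p = 0.374), that of Fcgr1 -0.14, that of Fcer1g 0.38, that of Fcgr3 0.26 and that of Fcgr2b 0.22, none called, beside 0.114% of all genes called.

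These ns differences were smaller without KO ns 6, at 0.29 for Fcer1g, 0.36 for Fcgr3, 0.25 for Fcgr2b, 0.12 for Fcgr4 and 0.045 for Fcgr1. Without all 5 libraries of high ribosomal protein share they were 0.31, 0.38, 0.25, 0.069 and 0.049 in the same order, none called, beside 0.269% of all genes. In set 1 alone Fcer1g differed by 0.11 and Fcgr3 by 0.18.

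After LPS the KO minus WT log2 difference was 0.19 ± 0.25 for Fcgr3, 0.09 ± 0.21 for Fcgr2b, -0.0076 ± 0.22 for Fcgr1, -0.26 ± 0.40 for Fcer1g and -0.34 ± 0.37 for Fcgr4. None of the 5 was called by edgeR or DESeq2 or had an unadjusted p under 0.05 (957 of all genes had), beside 0.0946% of all genes called by edgeR and 0.315% by DESeq2. The Fcgr4 interval ran from -1.10 to 0.42 on the log2 scale. Without the 5 libraries of high ribosomal protein share the Fcgr4 and Fcer1g differences turned to 0.10 and 0.16, uncalled beside 0.137% of all genes called. In the labelled groups none was called, beside 0.126% of all genes. Those libraries include WT LPS 7, by far the highest WT LPS sample for both genes.

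Whether LPS moved the genes differently in KO and WT was tested as the interaction of genotype and LPS. For Fcgr4 the KO response was lower than the WT response by a log2 difference of -0.80 ± 0.53 (95% interval -1.88 to 0.29, adjusted p = 0.763, edgeR). It became 0.035 without the 5 libraries (beside 0.00625% of all genes called) and 2.03 with the libraries numbered 2 in their labelled groups (beside 0.0%), uncalled in both. The interaction was -0.98 ± 0.57 for Fcer1g, the largest of the 5, with a 95% interval of -2.15 to 0.20. It was -0.35 ± 0.36 for Fcgr3, -0.30 ± 0.30 for Fcgr2b and -0.14 ± 0.31 for Fcgr1. The smallest adjusted p among the 5 genes was 0.754, none had an unadjusted p under 0.05, and neither edgeR nor DESeq2 called any. Over all genes edgeR called 0.0% and DESeq2 0.0189%, or 3 genes, with 756 at an unadjusted p under 0.05. Fcer1g and Fcgr2b, which passed in WT and not in KO, were thus not shown to respond differently.

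The sex experiment gives the genotype comparison in animals of stated sex. Its totals were 58.5 M to 318.5 M counts per animal, and those of the LPS experiment were 15.9 M to 168.4 M per library. The 2 tables were counted differently, so these totals do not compare sequencing depth, and the levels are not compared either. None of the 5 genes passed the test in males, in females or averaged over the sexes, beside 0.00946%, 0.164% and 0.432% of all 31709 genes called. At an unadjusted p under 0.05 there was 1 of the 5 in males, Fcgr2b, and 2 in females and 2 over the sexes, Fcgr2b and Fcer1g each time. Of all genes 2171, 1655 and 2860 had such a p in males, in females and over the sexes. DESeq2 called none of the 5 either, beside 0.0851%, 0.662% and 1.13% of all genes.

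**Figure D4:**
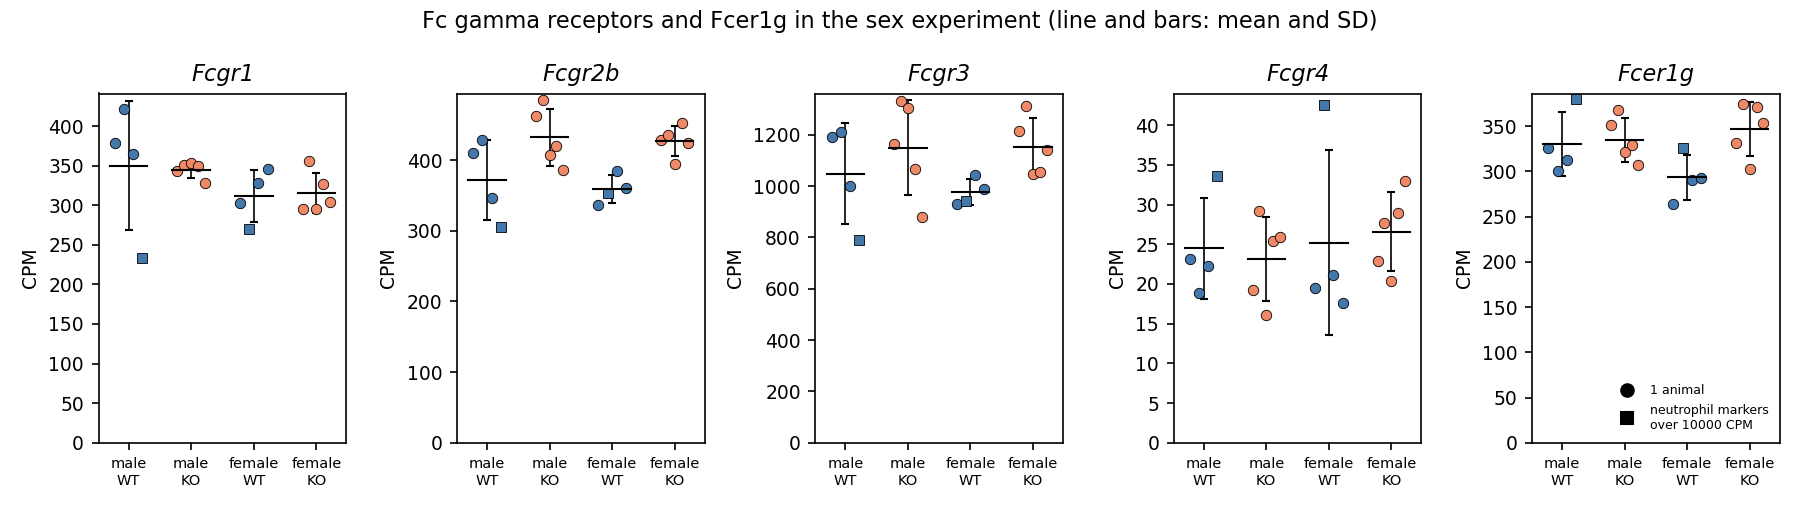
CPM of each gene in the sex experiment, 1 symbol per animal, with lines and error bars at the group mean and SD and squares for the 2 animals of high neutrophil marker level. Fcgr2b is at 393.9 to 452.5 CPM in female KO and 337.0 to 384.1 CPM in female WT, and Fcgr4 ranges from 16.1 to 42.5 CPM over all 18 animals.

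Fcgr2b had the lowest p of the 5 for genotype over the sexes. The 5 female KO animals had 393.9, 424.1, 428.7, 435.6 and 452.5 CPM and the 4 female WT animals 337.0, 353.6, 359.9 and 384.1 CPM. The 5 male KO animals had 385.7, 406.8, 420.5, 462.0 and 485.2 CPM and the 4 male WT animals 305.9, 346.1, 410.0 and 427.9 CPM. Every female KO animal was above every female WT animal, whereas the male groups overlapped. The KO minus WT log2 difference was 0.25 ± 0.09 in females (adjusted p = 0.646), 0.21 ± 0.09 in males (adjusted p = 0.719) and 0.23 ± 0.07 over the sexes (unadjusted p = 0.00213, adjusted p = 0.189, edgeR). The last corresponds to a 1.18-fold difference with a 95% interval of 1.07 to 1.29.

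Fcer1g was higher in KO than in WT females by 0.24 ± 0.09 on the log2 scale (unadjusted p = 0.0122, adjusted p = 0.623, edgeR), a difference that did not pass. Its values were 302.9, 331.6, 353.4, 371.6 and 374.8 CPM in female KO and 264.4, 291.0, 292.3 and 325.6 CPM in female WT. The highest female WT value, that of female WT 2, overlapped the KO range. In males they were 306.6, 321.8, 329.1, 350.8 and 368.1 CPM in KO and 300.4, 312.8, 326.2 and 380.4 CPM in WT, with a difference of 0.023 ± 0.087. The interaction of sex and genotype for Fcer1g was 0.22 ± 0.12 (adjusted p = 0.999), so the sexes were not shown to differ.

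Fcgr3 had 1047, 1054, 1140, 1213 and 1314 CPM in female KO and 930.4, 943.0, 989.2 and 1045 CPM in female WT. In males it had 881.5, 1067, 1165, 1303 and 1332 CPM in KO and 790.0, 1002, 1190 and 1212 CPM in WT. The female groups did not overlap but touched, and the male groups were interleaved. The log2 difference was 0.24 ± 0.13 in females, 0.13 ± 0.13 in males and 0.19 ± 0.09 over the sexes (adjusted p = 0.555, edgeR).

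Fcgr1 and Fcgr4 showed differences near 0 between the genotypes. Fcgr1 ranged from 295.4 to 355.6 CPM in female KO, 269.4 to 345.8 in female WT, 327.7 to 353.5 in male KO and 233.5 to 422.1 in male WT. Its difference over the sexes was -0.0016 ± 0.086 on the log2 scale, with a 95% interval of 0.88-fold to 1.13-fold. Fcgr4 ranged from 20.4 to 32.9 CPM in female KO, 17.6 to 42.5 in female WT, 16.1 to 29.1 in male KO and 18.9 to 33.6 in male WT. Its difference over the sexes was -0.0019 ± 0.18, with an interval of 0.76-fold to 1.31-fold.

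The highest Fcgr4 values of the sex experiment, in female WT 2 and male WT 5, came with the highest sums of the 10 neutrophil markers, 28925 and 48695 CPM, against 729.9 to 7738 CPM in the other animals. Without these 2 animals the Fcgr4 difference over the sexes was 0.29 (adjusted p = 0.651), that of Fcgr1 -0.11 (0.758), that of Fcgr2b 0.19 (0.271), that of Fcer1g 0.20 (0.164) and that of Fcgr3 0.12 (0.925, edgeR). None was called. The ribosomal protein share was 0.602% to 0.767% in KO animals. In WT animals it was 0.704% in male WT 5 and 0.488% to 0.595% in all others, which were below every KO animal. Its part in the Fcgr2b, Fcgr3 and Fcer1g differences was not tested. The interaction of sex and genotype called 0.0% of all genes by edgeR and 0.0% by DESeq2, with 879 genes at an unadjusted p under 0.05 and none of the 5 among them. Female and male WT differed in none of the 5 by either tool, or at an unadjusted p under 0.05, beside 0.0725% of all genes called by edgeR and 0.483% by DESeq2.

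The balance of activating and inhibitory receptor was compared as the ratio of counts within a library, which does not depend on scaling. Ratios of Fcgr1, Fcgr3 and Fcgr4 to Fcgr2b, and of Fcer1g to the sum of the activating receptors, were tested in 6 comparisons each by two-sided exact permutation tests over samples, with p adjusted over all 24. The shared sequence of Fcgr2b and Fcgr3 leaves the share of their reads uncertain here as well.

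The ratio of Fcgr4 to Fcgr2b rose with LPS in both genotypes. In KO it was 0.0355 to 0.102 in ns (median 0.0488) and 0.407 to 0.704 after LPS (median 0.548), and in WT 0.0358 to 0.0989 in ns (median 0.0482) and 0.402 to 1.19 after LPS (median 0.679). There was no overlap in either genotype. The mean log2 ratio changed by 3.42 in KO, a 10.7-fold change (exact permutation p = 0.000155, adjusted p = 0.00373), and by 3.67 in WT, a 12.7-fold change (exact permutation p = 0.00216, adjusted p = 0.0260). Both p are the smallest that these group sizes allow. Within set 1 the changes were 3.45 and 3.70 and within set 2 3.39 and 3.64, where the smallest possible p was 0.0286 in KO and 0.1 in WT. Without the 5 libraries of high ribosomal protein share they were 3.51 in KO and 3.50 in WT, and with the libraries numbered 2 in their labelled groups the WT change was 2.02 (adjusted p = 0.152, exact permutation).

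**Figure D5:**
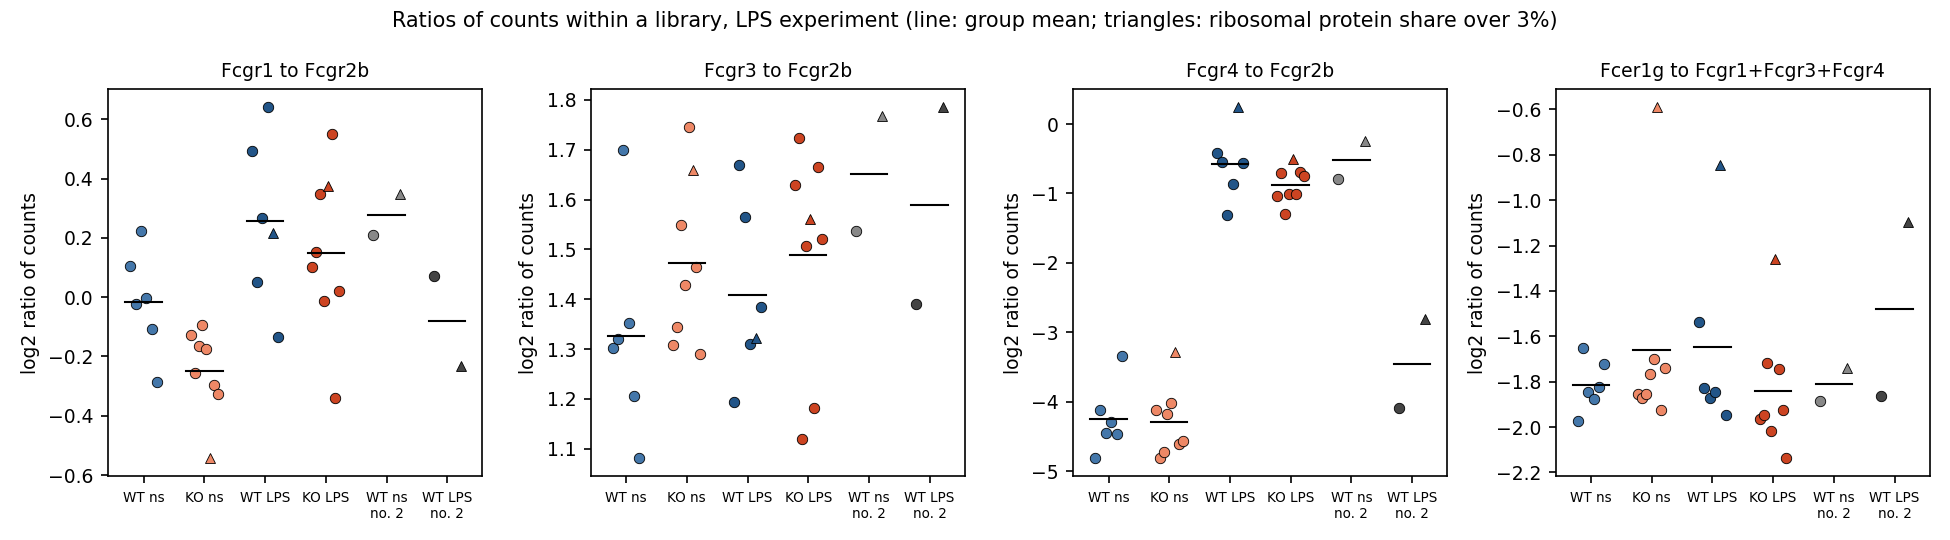
Log2 of the within-library count ratios in the LPS experiment, 1 symbol per sample, lines at group means, triangles for samples with a ribosomal protein share over 3%, and the WT libraries numbered 2 apart. The log2 ratio of Fcgr4 to Fcgr2b is at most -3.29 in ns and at least -1.31 in LPS samples of both genotypes, while the groups overlap for the other 3 ratios.

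The ratio of Fcgr1 to Fcgr2b moved less. In KO it was 0.686 to 0.938 in ns and 0.790 to 1.47 after LPS, an increase of 0.40 on the log2 scale (exact permutation p = 0.00326, adjusted p = 0.0261). That call was lost without KO ns 6, KO ns 7 or KO ns 8 (adjusted p = 0.0510 to 0.0597) and without the 5 libraries (0.32, adjusted p = 0.0857, exact permutation). In WT the increase was 0.27 (adjusted p = 0.312, exact permutation; 0.11 in the labelled groups), with 0.821 to 1.17 in ns and 0.911 to 1.56 after LPS.

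Between the genotypes the ratio of Fcgr1 to Fcgr2b was lower in KO than in WT in each comparison, by differences that did not pass the adjusted threshold. The log2 difference was -0.21 in males (adjusted p = 0.327), -0.23 in females (adjusted p = 0.152), -0.23 in ns samples (adjusted p = 0.106) and -0.11 after LPS (adjusted p = 0.677, exact permutation tests). In female KO animals the ratio was 0.690, 0.716, 0.721, 0.750 and 0.816, and in female WT 0.762, 0.854, 0.899 and 0.961. In male KO animals it was 0.723, 0.742, 0.832, 0.850 and 0.869, and in male WT 0.763, 0.925, 0.986 and 1.05. In each sex 1 WT animal, female WT 2 or male WT 5, lay within the KO range. Those are the animals with the high neutrophil marker level, and without them the groups of each sex did not overlap. The differences were then -0.29 in females and -0.30 in males (unadjusted p = 0.0179 and adjusted p = 0.0857 for each, exact permutation). That unadjusted p is the smallest that these group sizes allow. The 2 animals were left out after seeing the data, and they were the WT animals that had overlapped KO. In ns samples the difference passed the threshold with the libraries numbered 2 in their labelled groups (-0.31, adjusted p = 0.0336) and without WT ns 8 (-0.29, adjusted p = 0.0196, exact permutation). The former puts WT ns 1 and WT ns 5, at ratios of 1.16 and 1.27, into WT ns. By P2ry12 and Saa3 these libraries went against their labels, so that pass does not bear on genotype alone.

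The ratios of Fcgr3 to Fcgr2b and of Fcer1g to the activating receptors showed no difference past the threshold in any of the 6 comparisons. The median ratio of Fcgr3 to Fcgr2b was 2.48 in WT ns, 2.56 in WT LPS, 2.72 in KO ns and 2.91 in KO LPS. The median ratio of Fcer1g to the sum of Fcgr1, Fcgr3 and Fcgr4 was 0.280 in WT ns, 0.280 in WT LPS, 0.285 in KO ns and 0.261 in KO LPS. The highest ratios of the latter kind, 0.665 and 0.557, were in KO ns 6 and WT LPS 7.

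Genes that act around these receptors were followed in 5 lists, whose counts stand beside 28.3% of all genes called in KO and 30.3% in WT. Among 8 tested of 13 other immunoglobulin receptors, 4 fell and none rose after LPS in KO, and 3 fell and 1 rose in WT, with a median log2 fold change of -1.52 and -1.42. The named ones all fell. Fcrls, an Fc receptor-like gene that is a marker of microglia, changed by -1.69 ± 0.28 in KO and -1.65 ± 0.33 in WT on the log2 scale, and Fcrl1, an Fc receptor-like gene of B cells, by -2.03 ± 0.19 and -1.72 ± 0.22. Ms4a2, the beta chain of the mast cell receptor for IgE, changed by -2.29 ± 0.58 and -2.22 ± 0.66, at very low levels. Its mean was 1.52 CPM in KO ns, 0.31 CPM in KO LPS, 2.78 CPM in WT ns and 0.61 CPM in WT LPS. B-cell markers were also lower, their sum being 352-529 CPM in KO ns, 123-221 CPM in KO LPS, 419-494 CPM in WT ns and 85.2-169 CPM in WT LPS, and their part in the Fcrl1 change was not tested.

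Of the 8 Src, Tec and Syk kinases, 2 rose and 1 fell in KO, beside 28.3% of all genes called. In WT 3 rose and 2 fell, beside 30.3% (medians -0.058 and -0.25). Fgr, a Src-family kinase of myeloid cells, rose by 2.92 ± 0.46 in KO and by 2.32 ± 0.52 in WT. Tec changed by -0.60 ± 0.14 in KO and -0.75 ± 0.16 in WT. Of 21 activating adaptors and effectors, 3 rose and 1 fell in KO, and 2 rose and 3 fell in WT (medians -0.042 and -0.26), no more than the shares of all genes. The adaptors Lat2 and Lcp2 rose by 0.88 ± 0.13 and 0.81 ± 0.13 in KO and by 0.66 ± 0.14 and 0.75 ± 0.15 in WT, whereas Blnk, an adaptor best known from B cells, changed by -1.68 ± 0.18 and -1.74 ± 0.21.

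Of 9 tested inhibitory phosphatases, adaptors and receptors out of 10, 3 rose and 1 fell in KO, and 2 rose and 1 fell in WT (medians 0.44 and 0.29). Beside these stand 28.3% of all genes called in KO and 30.3% in WT. Pirb, an inhibitory immunoglobulin-like receptor, rose by 1.54 ± 0.33 in KO and 1.17 ± 0.38 in WT. Ptpn6, which encodes the phosphatase SHP-1, rose by 0.63 ± 0.14 and 0.58 ± 0.16. Sirpa, the inhibitory receptor for CD47, changed by -1.12 ± 0.26 and -1.42 ± 0.30. Of 10 tested out of 12 adaptors of the ITAM kind and receptors that pair with Fcer1g, none was called in KO, and Clec4e and Clec4d rose in WT by 1.77 ± 0.55 and 1.75 ± 0.57 (medians 0.13 and 0.42). Both encode C-type lectins that signal through the gamma chain.

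All named genes of the 5 lists had adjusted p of at most 0.0208 in the comparison given (edgeR). With the libraries numbered 2 in their labelled groups no gene of the 5 lists was called in WT, as for all genes. Without the 5 libraries of high ribosomal protein share the counts were 6 higher and 4 lower of the 21 activating adaptors in KO and 6 and 3 in WT, and 5 and 1 of the 9 inhibitory genes in KO and 4 and 1 in WT, where 48.2% of all genes were called in KO and 46.0% in WT. No gene of the 5 lists was called between KO and WT at either treatment, in either sex or in an interaction.

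The genes whose levels ran most closely with each of the 5 were taken by Pearson's r of log2 CPM over the 32 samples of the LPS experiment, among 13732 genes. For Fcgr4 these were Ly6i (0.987), Ms4a6c (0.986) and Ifi204 (0.983), with r of 0.743, 0.701 and 0.806 over the 18 animals of the sex experiment. For Fcgr1 they were Slamf6 (0.970), Ccl12 (0.968) and Alg8 (0.958), with 0.776, 0.146 and 0.613 in the sex experiment. For Fcer1g they included the ribosomal protein genes Rpl35 (0.994) and Rps25 (0.993), with 0.827 and 0.860 in the sex experiment. B2m (0.962), Mrpl16 (0.954) and Cd63 (0.954) stood nearest to Fcgr2b, with 0.669, 0.527 and 0.373 in the sex experiment. Rplp1 (0.937), Cd63 (0.936) and Eef1a1 (0.935) stood nearest to Fcgr3, with 0.569, 0.190 and 0.353 in the sex experiment. These values are descriptions, since the samples share treatment, library set and the ribosomal protein share.

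Among the 5 genes themselves, Fcgr2b and Fcgr3 kept a close relation in both experiments (r = 0.941 over 32 samples and 0.820 over 18 animals), and the part of their shared sequence in it was not tested. Fcgr1 and Fcgr4 went together in the LPS experiment (r = 0.832) and in opposite directions in the sex experiment (r = -0.540). The latter includes the 2 animals of high neutrophil marker level, in which Fcgr4 was highest and Fcgr1 lowest of their group.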

How the data were processed

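RNA-seq libraries from poly(A) RNA of CD11b-positive mouse brain cells were analysed from 2 count tables. The deposited values are whole-number read counts per gene, not normalized. Per the submitters' processing notes, FastQC, STAR 2.6.1, Subread, featureCounts and DESeq2 were used with build GRCm39. The strand setting is not given in the sources used here. Per the file headers, the gene length in the sex experiment table is the whole span, so introns were counted there. Of low counts (10 to 100), 77.3% to 85.0% were even in that table and 50.1% to 52.5% in the other, so the tables were counted differently and each was fitted alone. The labels list 57 libraries, of which 51 have a column and 6 repeat libraries were not analysed here. 0 columns were left without a sample.

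Genes were filtered with filterByExpr (31709 and 15857 left), scaled by TMM and tested with edgeR 4.0.16 (quasi-likelihood F test, R 4.3.3), 1 model per table with a mean per group, the library set as covariate in the LPS experiment, and Benjamini-Hochberg adjustment over all genes (threshold 0.05). WT libraries numbered 2 had means of their own, and WT LPS 8 and WT LPS 9 were summed. Levels are CPM values from the TMM-scaled totals. Correlations used log2 of CPM plus 0.5. Ratios were tested by exact permutation in Python 3.11.15. The fit was tested on simulated counts, for 1 comparison per experiment. These held no library set effect and no library of high ribosomal protein share, so that test does not bear on either. Median totals were 92.0 M counts in the sex experiment and 24.7 M in the LPS experiment, which were counted differently.

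Alternatives were DESeq2 1.42.0, other scaling, filters and groups, each set alone, a replicate block and each library left out in turn. Added after seeing the data were a neutrophil marker covariate and fits without the 5 libraries with a ribosomal protein share over 3% or the 2 animals with neutrophil markers over 10000 CPM. All 5 genes were tested in every comparison. Values of the interaction of sex and genotype are given for Fcer1g alone, and those of female against male WT are not given. From each list the text names up to 3 called genes with the lowest adjusted p for each genotype's LPS comparison, and for each of the 5 genes the 3 genes of highest r, except for 2 genes that are not reported here. The genes and lists were chosen with earlier results of these data known.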

Additional observations from a re-analysis of the deposited data

Results flagged for a closer look

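Of 40 sets of 1 gene in 1 group of 4 to 10 samples, 17 had their highest or lowest sample farther from its neighbour than Dixon's 95% limit allows, where chance flags about 1 in 20. They came from 6 samples, so they are not independent of each other. WT LPS 7 was highest for all 5 genes, with Fcer1g at 3690, Fcgr3 at 3415, Fcgr4 at 1625, Fcgr1 at 1586 and Fcgr2b at 1365 CPM. KO ns 6 was highest for all 5 too, with Fcgr3 at 3141, Fcer1g at 2612, Fcgr2b at 994.2, Fcgr1 at 681.9 and Fcgr4 at 101.7 CPM. KO LPS 5 was highest for all 5 and stood apart for 4, with Fcer1g at 1990, Fcgr1 at 1246, Fcgr2b at 961.4 and Fcgr4 at 677.2 CPM. These 3 libraries had ribosomal protein shares of 9.01%, 7.28% and 4.60%, the highest of their groups.

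Single genes stood apart in 3 other samples. Fcgr4 was at 40.09 CPM in WT ns 8, which also had a neutrophil marker sum of 16362 CPM (WT ns 3, with 17641 CPM of these markers, had Fcgr4 at 19.8 CPM), and at 42.53 CPM in female WT 2, with a neutrophil marker sum of 28925 CPM. Fcer1g was at 454.0 CPM in WT ns 4, the most deeply sequenced library of its experiment.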

How the results depend on the processing

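The Fcgr4 rise after LPS passed in KO under all alternatives and left-out libraries (log2 3.45 to 4.03), and in WT except with the libraries numbered 2 in their labelled groups. Of the 5 genes, the number called in KO (2 as reported) was 1 with every library numbered 2 left out, 5 in set 1, 1 in set 2 and 5 without the 5 libraries of high ribosomal protein share. Beside these stand 29.3%, 44.9%, 4.65% and 48.2% of all genes. In WT (4 as reported) it was 0 in the labelled groups and 1 in set 2, beside 0.0% and 3.62% of all genes. With single libraries left out it was 2 to 5 in WT, beside 3958 to 5611 of all genes. It stayed at 2 in KO, beside 4131 to 5087 of all genes. The cause of these changes was not tested. With a replicate block on the library numbers, the 5 genes gave 2 calls in KO and 5 in WT (Fcgr3 0.68, adjusted p = 0.0433, edgeR), and 0 in the genotype comparisons, with 5425 and 5639 of all genes for LPS. The block turned Fcer1g in males to -0.0083 and Fcgr1 at LPS to 0.021. For samples sharing a number the mean r was 0.073 (sex animals, 13 of 24 pairs over 0.1) and 0.077 (LPS libraries, 12 of 35). For samples with different numbers it was lower, at -0.015 (sex animals, 33 of 97 pairs over 0.1) and -0.011 (LPS libraries, 39 of 111). These values do not settle whether the numbers pair samples. The reported fits did not use them as pairs.

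Changes of sign touched only values that were uncalled on both sides. For KO against WT after LPS, Fcgr1 (-0.0076) became 0.069 with WT LPS 8 and WT LPS 9 apart, 0.062 in the labelled groups, 0.28 in set 1, 0.0011 at a mean of 5 CPM, 0.0092 with the neutrophil covariate, 0.000373 with only the groups compared and 0.16 without the 5 libraries. Fcgr4 (-0.34) became 0.012 in the labelled groups, 0.13 in set 1 and 0.10 without the 5 libraries. Fcer1g (-0.26) became 0.18 in set 1 and 0.16 without the 5. Fcgr2b (0.09) became -0.012 with every library numbered 2 left out of all groups and -0.070 in set 2. In ns samples the labelled groups gave -2.02 for Fcgr4 and -0.14 for Fcgr1, and set 1 -0.050 for Fcgr1. The Fcgr4 interaction became 2.03 in the labelled groups and 0.035 without the 5. Fcer1g after LPS in KO became -0.041 with every library numbered 2 left out of all groups.

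In the sex experiment Fcgr1 became -0.0059 in females and 0.0055 in males at a mean of 5 CPM, -0.045 in females without the 2 animals of high neutrophil markers, and 0.0095 over the sexes with no filter. Fcgr4 became 0.15 in males and 0.16 over the sexes with the neutrophil covariate, 0.11 and 0.29 without the 2 animals, and 0.019 over the sexes with no filter. Of the ratios, Fcgr4 to Fcgr2b after LPS became 0.42 in the labelled groups, Fcer1g to the activating receptors in ns -0.013 and Fcgr3 to Fcgr2b in ns -0.034 in set 1, and Fcgr3 to Fcgr2b for LPS in KO -0.058 in set 2. Without the 2 animals, Fcer1g to the activating receptors in males became 0.13 and Fcgr4 to Fcgr2b in females 0.19.

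Leaving out 1 sample gave both signs for KO against WT after LPS of Fcer1g (-0.44 to 0.38), Fcgr1 (-0.13 to 0.32) and Fcgr4 (-0.49 to 0.21), for Fcer1g in males (-0.020 to 0.10), for Fcgr1 over the sexes (-0.077 to 0.050), in females (-0.047 to 0.071) and in males (-0.17 to 0.082), and for Fcgr4 over the sexes (-0.071 to 0.19), in females (-0.059 to 0.45) and in males (-0.19 to 0.11). It did so for the ratios of Fcer1g to the activating receptors in males (-0.20 to 0.13), Fcgr3 to Fcgr2b in females (-0.056 to 0.037) and for LPS in KO (-0.019 to 0.068), and Fcgr4 to Fcgr2b in ns (-0.19 to 0.14) and in females (-0.24 to 0.19).

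Counts over all genes moved as follows. In males 3 genes became 27 (DESeq2), 6 (5 CPM), 5 (block) and 6 (neutrophil covariate). In females 52 became 210 (DESeq2), 96 (no filter), 79 (5 CPM), 3 (only the groups compared), 85 (block), 214 (covariate) and 192 (without the 2 animals). Over the sexes 137 became 358 (DESeq2), 218 (5 CPM), 332 (covariate) and 309 (without the 2 animals). Between female and male WT 23 became 153 (DESeq2), 10 (5 CPM), 11 (only the groups compared) and 13 (block). In ns 14 became 46 (DESeq2), 7 (5 CPM), 1 (set 2) and 43 (without the 5), and after LPS 15 became 50 (DESeq2), 10 (no filter), 6 (5 CPM), 3 (only the groups compared), 36 (block), 26 (set 1) and 0 (set 2). The interaction of genotype and LPS went from 0 to 3 (DESeq2) and 1 (set 1, the covariate, or without the 5). For LPS in KO 4481 became 7058 (set 1), 756 (set 2) and 7712 (without the 5), and in WT 4811 became 0 (labelled groups), 589 (set 2) and 7358 (without the 5). With 1 sample left out they ran from 5 to 132 in females, 54 to 279 over the sexes, 14 to 41 for sex in WT, 11 to 23 in ns and 8 to 29 after LPS.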
